A study of Macaca mulatta with 45 samples.

Results

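White matter and hippocampus were compared within the same 5 rhesus macaques after fractionated whole-brain irradiation (fWBI). The comparison took the 10 libraries whose labels name fWBI white matter or fWBI hippocampus, 1 of each region from every animal, out of 45 libraries in the series, and it covered all genes. The fWBI animals had received 40 Gy to the brain in 8 fractions of 5 Gy, and necropsy followed 12 months later. Their white matter came from the centrum semiovale, the deep white matter of the cerebral hemisphere. Libraries of the same regions from 2 further groups of 5 animals were used to test whether the difference between the regions was itself different after fWBI. In the TBI group the whole body had been irradiated with 1 dose, between 6.75 and 8.05 Gy, and necropsy followed after 6 to 9 years. The control animals had been irradiated with 10 Gy on the thorax only, with an estimated brain dose below 0.1 Gy, so no group was free of radiation. The fWBI and TBI groups differed in dose, fractionation, irradiated field and time since exposure, which cannot be told apart. The fWBI and control groups differed in brain dose and irradiated field, which cannot be told apart either. No time since exposure is given for the controls. All animals were perfused with saline before the frozen tissue was homogenised, and each library is bulk total RNA of 1 animal and region.

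Central white matter is made of myelinated axons, the oligodendrocytes that wrap them, astrocytes, microglia and vessels, whereas most neuronal cell bodies and synapses lie in grey matter. The hippocampus is grey matter built of pyramidal neurons and dentate granule cells, and it keeps a niche of neural precursors. White matter is a known site of late radiation injury, with loss of myelin, vascular change and inflammation. In bulk tissue, fewer cells of a type and less RNA per cell cannot be told apart, so every value here is an amount of RNA per library.

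Total counts ran from 9371091 to 11301562 in the 5 fWBI white matter libraries and from 8256801 to 12541507 in the 5 fWBI hippocampus libraries. Levels are given as CPM, the counts of a gene relative to the scaled total of its library, and they cannot be compared between genes because gene lengths were not used. Fold changes are log2 values of white matter over hippocampus with their standard error (SE), from a fit of the 5 pairs with animal as a block, and a gene was called when its p-value, adjusted over all tested genes, was under 0.05 in edgeR's quasi-likelihood test. Where a gene had fewer than 15 reads in the 5 libraries of a group together, 3 per library, only its levels are given. Control white matter of animals 1 and 3 stood apart from all other white matter libraries. Its mean log2 CPM over 13 pan-neuronal genes was 8.40 and 7.48, against 5.14 to 5.64 in the other 3 control white matter libraries and 4.72 to 5.68 in fWBI white matter. Results that rest on the control animals are therefore given with and without these 2 animals. The fWBI libraries matched their labels: the myelin gene MBP was at least 11905 CPM in every white matter library and at most 2488 CPM in every hippocampus library.

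The 2 regions differed across most of the transcriptome. Of 15251 tested genes, 5217 (34.2%) were higher and 5338 (35%) lower in white matter, 10555 or 69.2% in all, and the median log2 fold change of all tested genes was 0.005. In 94.1% of the called genes, all 5 animals showed the same direction. The 5 white matter libraries lay wholly above the 5 hippocampus libraries in 25.4% of tested genes and wholly below them in 27.8%. Large differences leaned towards hippocampus: 304 called genes were at least 16-fold lower in white matter and 30 were at least 16-fold higher. These shares are the background against which the counts of each gene group below are read. With a log2 fold minimum of 1 built into the test, 3798 genes were called, 1659 of them higher.

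**Figure D1:**
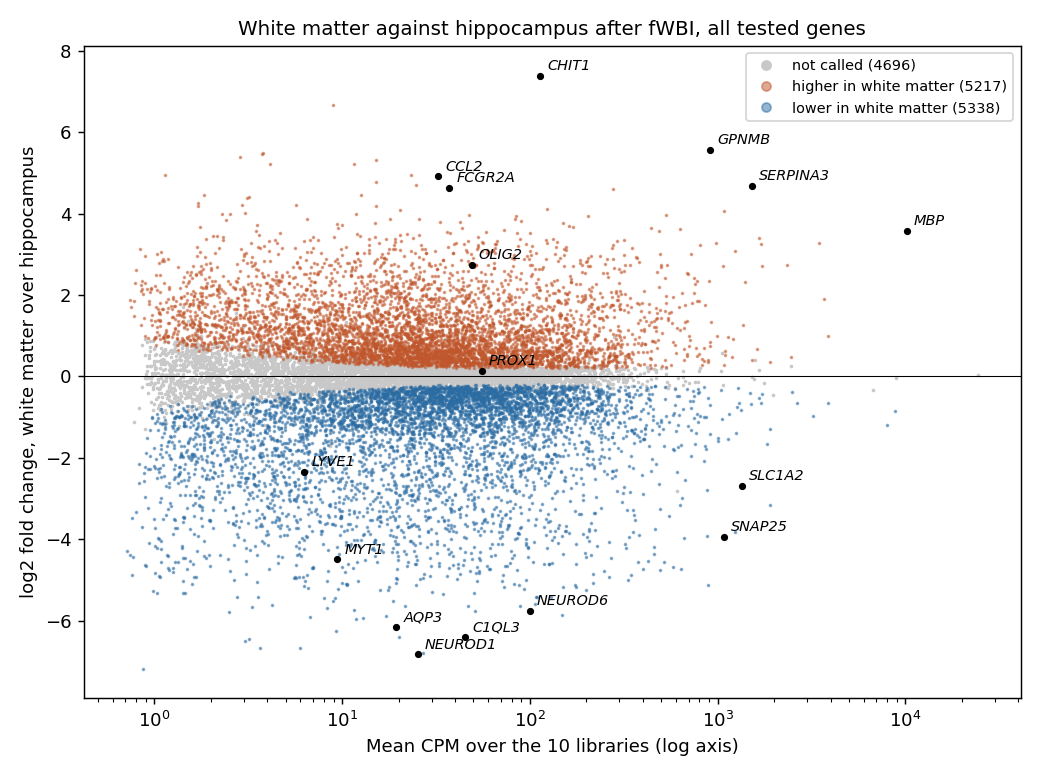
Log2 fold change of white matter over hippocampus after fWBI (vertical axis) against mean CPM over the 10 libraries (horizontal log axis) for all tested genes. Orange points were called higher (5217) and blue points lower (5338) in white matter, and black points are named genes. More genes lie far below 0 than far above it, and the labelled genes run from CHIT1 at 7.39 at the top to NEUROD1 at -6.82 at the bottom.

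CHIT1, the chitinase of activated macrophages, had the largest rise of the genes named, with 43.9, 412, 199.8, 441 and 28.6 CPM in white matter of animals 1 to 5, against 2.08, 0.478, 0.589, 0.493 and 1.03 CPM in hippocampus. Every white matter library lay above every hippocampus library, but animals 1 and 5 had far less than the other 3. Its fold change was 7.39 ± 0.76 (adjusted p = 4.38e-05), 8.44 without animal 1 and 6.64 without animal 4. GPNMB, a membrane glycoprotein of lipid-laden macrophages, had 1273, 2423, 1336, 3492 and 413 CPM in white matter and 50.6, 34.3, 24, 15.4 and 34.6 CPM in hippocampus, a fold change of 5.57 ± 0.61 (adjusted p = 6.23e-05). The groups did not overlap, and white matter of animal 5 was the lowest of its group. TREM1, a receptor that amplifies inflammation in myeloid cells, reached 2.97 to 34.6 CPM in white matter and 0 to 0.452 CPM in hippocampus, below the limit on reads there. The same held for ADGRE2, a myeloid adhesion receptor gene, with 1.61 to 13.8 CPM in white matter and 0 to 0.542 CPM in hippocampus. The integrin ITGAX (5.30 ± 0.69; 4.55 without animal 4), the Fc receptor FCGR2A (4.63 ± 0.32) and LILRA3 of the leukocyte immunoglobulin-like receptors (4.94 ± 0.37) were higher in 5 of 5 animals. ITGAX had 24.6, 48.1, 15.1, 58.3 and 1.53 CPM in white matter, against 2.44, 0.239, 0.354, 0.0822 and 0.281 CPM in hippocampus, so white matter of animal 5 lay below hippocampus of animal 1. Its hippocampus libraries held 36 reads, most of them in animal 1, too few in the others for a value without that animal. FCGR2A and LILRA3 have near-identical relatives among which reads could be split. CCL2, the chemokine that draws monocytes, had 43.1, 97.1, 66.5, 67.4 and 41.7 CPM in white matter, against 1.17, 3.23, 0.589, 2.55 and 2.72 CPM in hippocampus (4.92 ± 0.29). The acute-phase protease inhibitor SERPINA3 (4.69 ± 0.17) and FBXO40 (5.21 ± 0.50) were higher as well. SOAT2, which esterifies cholesterol, had 1.1 to 14 CPM in white matter and 0 to 0.452 CPM in hippocampus. TBXT, the mesodermal transcription factor brachyury, had 1.94 to 13.3 CPM in white matter and 0 to 0.452 CPM in hippocampus, and both were below the limit on reads in hippocampus.

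NEUROD1, a transcription factor of granule neurons, had the largest fall of the genes named, with 0.377, 0, 0.408, 0.491 and 0.763 CPM in white matter, against 65.6, 51.5, 61, 37.1 and 35.3 CPM in hippocampus (-6.82 ± 0.35, adjusted p = 1.55e-06). C1QL3, a secreted synaptic protein, had 0.754, 0.622, 1.43, 1.47 and 0.848 CPM in white matter, against 85.8, 117, 108, 78.9 and 55.4 CPM in hippocampus (-6.40 ± 0.22). The groups were far apart for both genes, with no overlap. HPCA, the calcium sensor hippocalcin, had 5.56, 2.07, 5.82, 6.48 and 5.77 CPM in white matter and 376, 247, 257, 249 and 335 CPM in hippocampus (-5.85 ± 0.22), and white matter of animal 2 was the lowest. The receptor tyrosine kinase EPHA6 (-6.79 ± 0.20), the secreted neuronal protein TAFA1 (-5.93 ± 0.26), the excitatory neuron factor NEUROD6 (-5.75 ± 0.26) and the water and glycerol channel AQP3 (-6.15 ± 0.31) followed. AQP3 was at most 0.848 CPM in any white matter library and 25 to 43.7 CPM in hippocampus, lowest in animal 5. Another 5 genes ranked with these but were below the limit on reads in white matter. The neuropeptide FF receptor NPFFR2 had 0 to 0.565 CPM in white matter and 11.4 to 15.1 CPM in hippocampus. The matrix protein MFAP5 had 0 to 0.471 CPM in white matter and 3.62 to 44.8 CPM in hippocampus. GRP, TPH2 and HTR3A had at most 0.294 CPM in any white matter library.

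Myelin and oligodendrocyte genes were higher in white matter. Of 11 tested genes for myelin proteins, 10 were higher and 0 lower, with a median of 3.25 and a range over animals of 2.39 to 3.83. All 7 tested genes for oligodendrocyte regulators and enzymes of myelin lipid were higher (median 3.22). MBP, a main protein of compact myelin, had 26167, 19103, 18505, 17708 and 11905 CPM in white matter, against 2172, 899, 1124, 1532 and 2488 CPM in hippocampus, a fold change of 3.58 ± 0.31 (adjusted p = 1.63e-05). Its white matter level was lowest in animal 5 and its hippocampal level highest there, so that animal had the smallest difference. The surface antigen MOG differed by 3.64 ± 0.27 and MOBP by 4.06 ± 0.37. MYRF, the transcription factor that switches on myelin genes, differed by 3.93 ± 0.40. The galactolipid enzymes UGT8 (3.22 ± 0.18) and FA2H (3.54 ± 0.28) and the kinase SGK2 (3.47 ± 0.24) were higher by similar amounts. OMG, an inhibitor of neurite growth that neurons also make, had the smallest called value (0.51 ± 0.18, adjusted p = 0.0309), and the call was lost without animal 1, 3 or 4 (0.40, 0.44 and 0.42). MYOC was not called (0.71 ± 0.39).

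**Figure D2:**
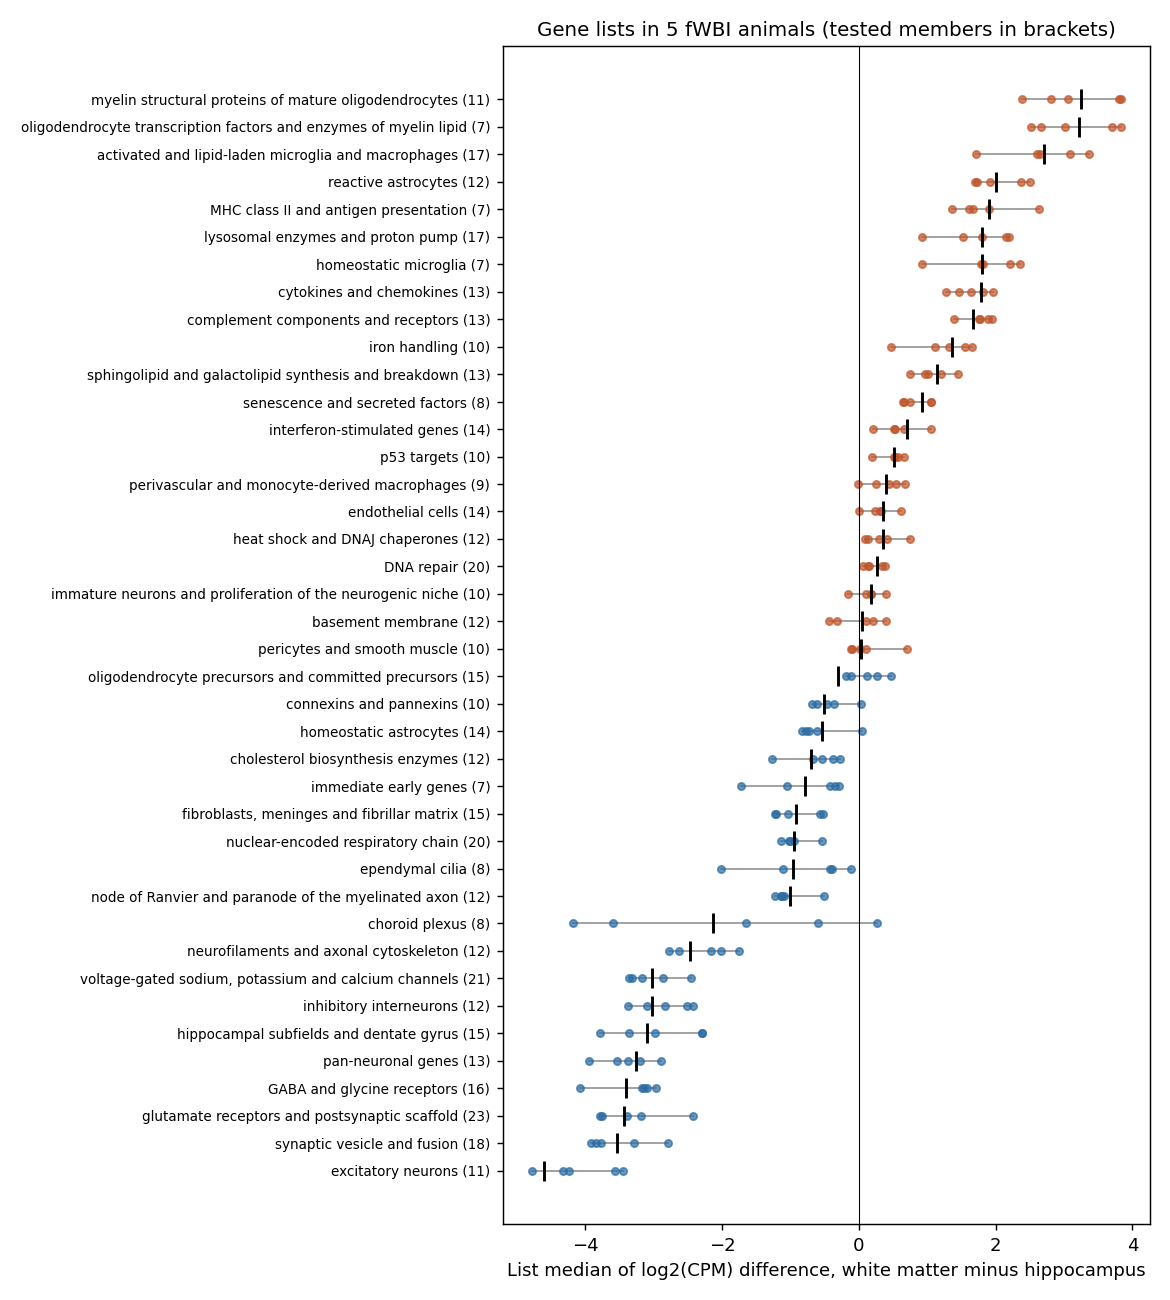
Median log2 difference of each gene list, white matter minus hippocampus, in each of the 5 fWBI animals (points), with the median of the fitted fold changes as a black bar and the number of tested members in brackets. The bars of the myelin lists lie at 3.22 and 3.25 and those of the neuronal, axonal and synaptic lists between -4.60 and -2.47, while the choroid plexus list spreads from -4.18 to 0.26 over animals.

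Genes of the oligodendrocyte lineage before myelination were called in both directions. Of 15 tested genes of precursors and committed precursors, 7 were higher and 6 lower in white matter. These counts are not far from the 34.2% and 35% over all genes. The list median in the 5 animals ran from -0.19 to 0.46, on both sides of 0. OLIG2, a transcription factor of the whole lineage, had 77.8, 74.5, 91.9, 72.2 and 106 CPM in white matter, against 17.9, 6.21, 8.96, 11.8 and 21.6 CPM in hippocampus (2.75 ± 0.22). The genes of newly formed oligodendrocytes ENPP6 (3.81 ± 0.27) and BCAS1 (3.15 ± 0.19) and the receptor GPR17 of committed precursors (1.44 ± 0.27) were higher as well, as were SOX6 (1.00 ± 0.17) and VCAN (1.26 ± 0.095), which other cells also express. CSPG4, the NG2 proteoglycan of precursors and pericytes, was higher by 0.87 ± 0.25, a call lost without animal 3 (0.73, adjusted p = 0.0524).

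In the other direction, MYT1, a zinc-finger factor of precursors, had 0.659, 0.207, 1.22, 0.982 and 0.848 CPM in white matter, against 17.8, 18.9, 25.7, 15.1 and 12.8 CPM in hippocampus (-4.49 ± 0.28, adjusted p = 3.36e-06). It was near the limit of detection in every white matter library, and the groups did not overlap. TNR, the matrix protein tenascin-R made by precursors and some neurons, had 5.84, 2.69, 13.8, 6.68 and 7.97 CPM in white matter and 87.2, 59.9, 110.3, 59 and 40.5 CPM in hippocampus (-3.30 ± 0.27). LUZP2 (-3.90 ± 0.29), the protocadherin PCDH15 (-3.33 ± 0.46) and MEGF11 (-1.58 ± 0.24) were lower too. PDGFRA, the growth factor receptor that defines precursors, had 70.4, 63.4, 60.6, 62.2 and 71.4 CPM in white matter, against 81.1, 97.4, 79, 93.9 and 87.7 CPM in hippocampus. That is a small difference (-0.42 ± 0.093, adjusted p = 0.00375) beside those of MYT1 and TNR. PTPRZ1 (-0.32 ± 0.14) and LHFPL3 (-0.30 ± 0.29) were not called, but PTPRZ1 was called lower without animal 4 (-0.435).

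Of 12 tested genes of the node of Ranvier and paranode, 4 were higher and 8 lower. The higher ones were GLDN (3.65 ± 0.31), CNTN2 (3.58 ± 0.32), JAM3 (2.40 ± 0.15) and NFASC (1.39 ± 0.19). Oligodendrocytes make CNTN2, JAM3 and a form of NFASC for the contact with the axon, and GLDN was described as a nodal organiser of Schwann cells in the peripheral nerve. The lower ones included the axonal partners CNTNAP1 (-2.10 ± 0.23) and CNTNAP2 (-3.74 ± 0.30) and the sodium channel SCN8A (-3.86 ± 0.20).

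**Figure D3:**
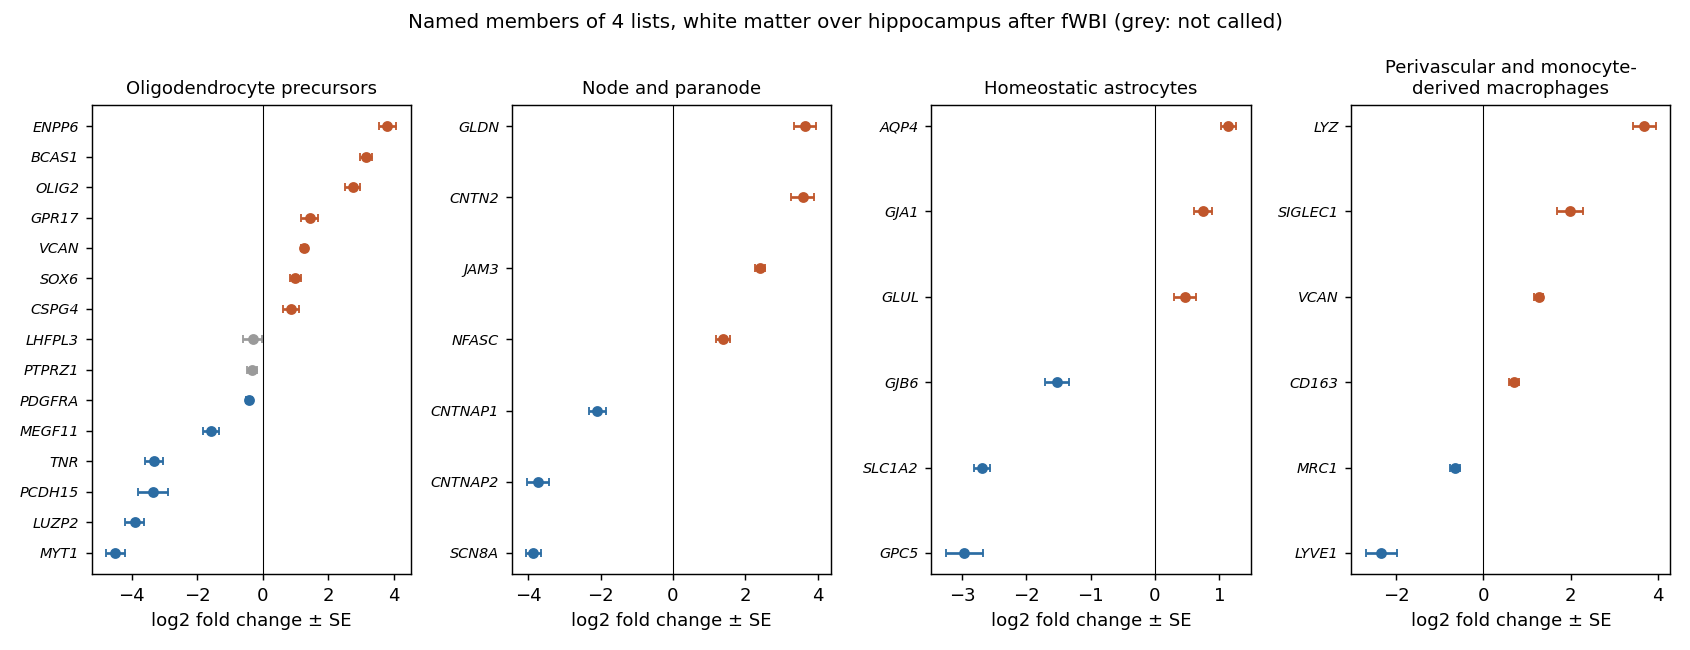
Log2 fold change of white matter over hippocampus (horizontal axis, points with SE) for the members of 4 lists described in the text, with orange for called higher, blue for called lower and grey for not called. In each panel some members were called higher and others lower, as with ENPP6 at 3.81 and MYT1 at -4.49 among oligodendrocyte precursor genes.

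Neuronal genes were lower in white matter in nearly every group. Of 13 pan-neuronal genes, 12 were lower (median -3.27), and all 11 tested excitatory neuron genes were lower (median -4.60). SNAP25, a protein of synaptic vesicle fusion, had 155, 69, 112, 189 and 174 CPM in white matter, against 2150.1, 1949, 1866, 2133 and 1990.3 CPM in hippocampus (-3.93 ± 0.21, adjusted p = 1.81e-06). Hippocampal levels were close to each other, while white matter levels were spread more widely, lowest in animal 2. THY1 (-4.53 ± 0.28), the vesicular glutamate transporter SLC17A7 (-4.60 ± 0.31), the kinase CAMK2A (-4.92 ± 0.25) and the secreted pentraxin NPTX1 (-5.07 ± 0.46) were among the lowest. ELAVL3, an RNA-binding protein of neurons, was the exception and was higher in white matter, with 48, 48.2, 58.5, 37.4 and 31.6 CPM, against 34.1, 14.5, 24.9, 17.6 and 15.2 CPM in hippocampus (1.11 ± 0.16, adjusted p = 0.000363).

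Of 12 interneuron genes, 11 were lower (median -3.03). GAD1, which makes GABA, was lower (-3.50 ± 0.24) and the neuropeptide gene CCK too (-4.64 ± 0.25). PVALB of fast-spiking cells was lower (-1.71 ± 0.57), but only -0.87 without animal 5.

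Of 12 neurofilament and axonal cytoskeleton genes, 10 were lower and 0 higher (median -2.47), although white matter is rich in axons. NEFL, the light neurofilament chain, had 50.1, 22.4, 33.9, 59.1 and 59.5 CPM in white matter, against 844, 1079, 981, 1168 and 1515 CPM in hippocampus (-4.69 ± 0.23). STMN2 was lower (-4.57 ± 0.22), whereas MAP1B was not called (-0.44 ± 0.19). It was called lower without animal 2 (-0.65), with the DESeq2 test (-0.44) and without the filter on low counts (-0.44).

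At the synapse, 17 of 18 genes of vesicles and fusion were lower (median -3.54), and RAB3A was not called (0.12 ± 0.16). SYN2 (-4.29 ± 0.29) and SYT4 (-4.54 ± 0.30) were examples. Of 23 glutamate receptor and scaffold genes, 21 were lower, such as GRIA1 (-4.20 ± 0.18). GRM3, a receptor that glia also carry, was higher, with 249.9, 259, 308, 212 and 297 CPM in white matter, against 142, 130, 104, 106 and 135 CPM in hippocampus (1.10 ± 0.12). All 16 GABA and glycine receptor genes were lower (median -3.41), with GABRB1 at -4.78 ± 0.28. Of 21 voltage-gated channel genes 20 were lower (median -3.02), with KCND2 at -4.89 ± 0.21.

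Markers of hippocampal subfields were not uniform. Of 15 tested, 12 were lower and 0 higher (median -3.09). Beside NEUROD1 and C1QL3, the granule cell gene C1QL2 (-5.29 ± 0.40; -5.96 without animal 5) and FIBCD1 of CA1 (-5.21 ± 0.21) were lower. PROX1, the factor that fixes granule cell identity, was not called. It had 51.1, 73.5, 77.1, 43.5 and 39.9 CPM in white matter, against 78.8, 42.5, 80.1, 29.2 and 38.5 CPM in hippocampus (0.14 ± 0.19, adjusted p = 0.528). WFS1, a marker of CA1, was not called either (0.18 ± 0.15).

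Genes of the neurogenic niche had 4 of 10 higher and 4 lower, not far from the 34.2% and 35% over all genes. DCX, a protein of migrating young neurons, was lower (-1.09 ± 0.13) and NNAT too (-4.45 ± 0.28). STMN1 (1.18 ± 0.16) and the intermediate filament NES, which reactive astrocytes and vessels also express (1.74 ± 0.27), were higher.

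Of 20 nuclear genes of the respiratory chain, 19 were lower and 0 higher in white matter, with a narrow spread around a median of -0.94. The ATP synthase subunit ATP5F1B had 148, 124, 132, 146 and 146 CPM in white matter, against 277, 332, 298, 372 and 382 CPM in hippocampus (-1.25 ± 0.10). All 5 white matter libraries lay below all 5 hippocampus libraries. The largest fall of the list was in the complex I subunit NDUFB5 (-1.37 ± 0.13).

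Genes of reactive astrocytes were mostly higher in white matter and those of homeostatic astrocytes mostly lower. The state of the astrocytes was not measured apart from these genes. Of 12 tested genes of reactive astrocytes, 11 were higher and 0 lower in white matter (median 2.01). GFAP, the filament of fibrous and reactive astrocytes, had 4129, 5997, 4966, 4805 and 9368 CPM in white matter, against 1299, 1755, 1378, 1193 and 1964 CPM in hippocampus (1.91 ± 0.12, adjusted p = 3.84e-06). Animal 5 had the highest level in both regions. VIM (2.11 ± 0.17), the matrix protein TNC (2.99 ± 0.24), the hyaluronan receptor CD44 (3.12 ± 0.40) and the secreted glycoprotein CHI3L1 (4.60 ± 0.57; 5.20 without animal 5) were higher. CP, the copper and iron oxidase ceruloplasmin, was higher by 2.73 ± 0.61 (3.33 without animal 5). With CPM scaled over the 30 libraries used below, it had 103 to 230 CPM in white matter and 5.81 to 125 CPM in hippocampus. The groups thus overlapped, and hippocampal levels were widely spread.

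Of 14 genes of homeostatic astrocytes, 9 were lower and 3 higher (median -0.54). SLC1A2, the main glutamate transporter, had 466, 264, 287, 443 and 351 CPM in white matter, against 3043, 1877, 2291, 2636 and 1751 CPM in hippocampus (-2.69 ± 0.12, adjusted p = 1.22e-06). The groups did not overlap. The proteoglycan GPC5 (-2.96 ± 0.29) and the gap junction protein GJB6 (-1.52 ± 0.18) were lower too. The water channel AQP4 had 726, 700.3, 745, 828 and 1395 CPM in white matter, against 352, 412, 334, 358 and 482 CPM in hippocampus (1.14 ± 0.12). GJA1, the main astrocyte connexin, was higher by 0.75 ± 0.14. GLUL, which makes glutamine, had 1154, 1048, 1193, 1194 and 2497 CPM in white matter, against 853, 1042, 970.4, 937 and 1028 CPM in hippocampus (0.47 ± 0.17, adjusted p = 0.0376). White matter of animal 5 stood far above the rest for GLUL, and the call was lost without animal 1, 3, 4 or 5 (0.49, 0.52, 0.50 and 0.27).

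Connexins and pannexins join cells or release small molecules. Of 10 tested, 4 were higher and 5 lower, not far from the 34.2% and 35% over all genes.

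Microglia and macrophage genes were higher in white matter. All 7 tested genes of homeostatic microglia were higher (median 1.81), and so were 15 of 17 genes of activated or lipid-laden microglia and macrophages, with 0 lower (median 2.71). P2RY12, a purine receptor of resting microglia, had 75.5, 43.6, 46.8, 43.6 and 33.2 CPM in white matter, against 23.1, 17.2, 16.6, 16.8 and 20.7 CPM in hippocampus (1.32 ± 0.15). SALL1, a transcription factor of microglia (2.60 ± 0.18), SELPLG (2.85 ± 0.23) and CSF1R, the receptor on which microglia depend (0.83 ± 0.088), were higher too. CD68, a lysosomal protein of phagocytes, had 66.3, 109.6, 64.6, 132 and 26.5 CPM in white matter, against 6.05, 5.62, 4.36, 4.6 and 4.87 CPM in hippocampus (3.80 ± 0.31). The lipid receptor TREM2 (3.12 ± 0.24) and the galectin LGALS3 (3.78 ± 0.32) were higher, whereas LPL (-0.53 ± 0.31) and APOC1 (1.27 ± 0.55; 1.71 and called without animal 5) were not called. APOC1 was called in 6 of 15 alternatives.

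Animal 5 had the smallest difference in these lists. Its median was 0.92 for homeostatic microglia genes, against 1.79 to 2.35 in the other 4 animals, and 1.72 for activated and lipid-laden cells, against 2.60 to 3.36. FCGR2A, which is in neither list, was also lowest in white matter of animal 5, with 72.6, 88.8, 73.2, 112 and 11.6 CPM in white matter and 1.5 to 3.97 CPM in hippocampus. The white matter of this animal had at the same time the lowest MBP and the highest GFAP, AQP4, GJA1 and GLUL of its group.

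**Figure D4:**
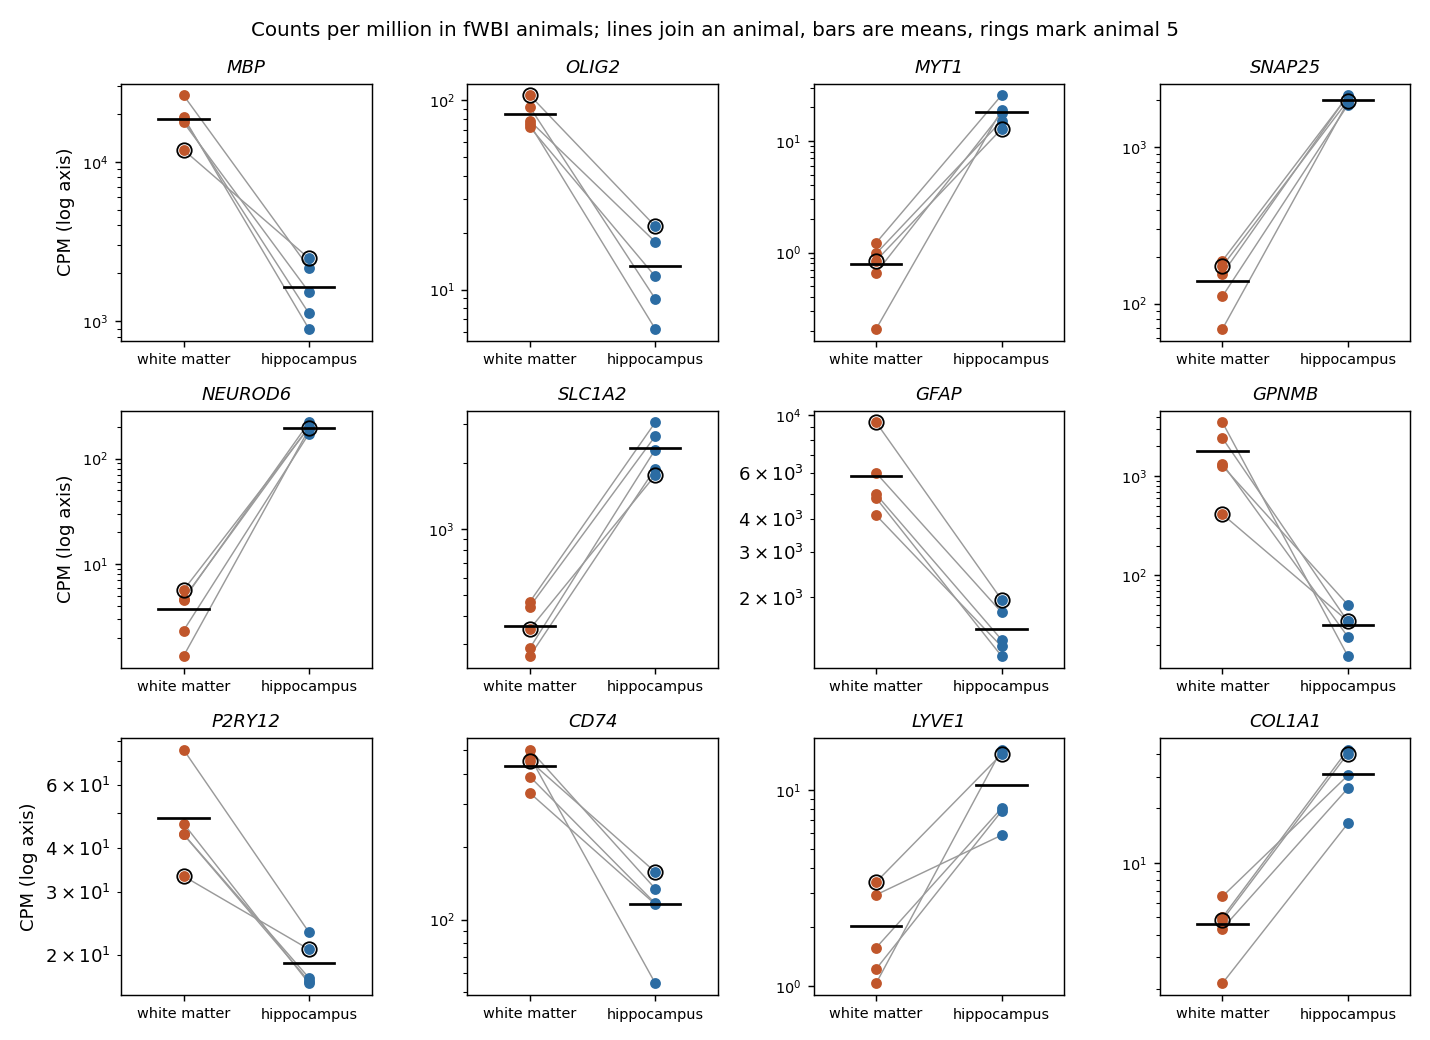
CPM (vertical log axis) of 12 genes in white matter (orange, left) and hippocampus (blue, right) of the 5 fWBI animals. Lines join the regions of an animal, bars are means and rings mark animal 5, which had the lowest GPNMB and the highest GFAP of the white matter libraries.

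Genes of perivascular and monocyte-derived macrophages split, with 5 of 9 higher and 2 lower. LYZ, lysozyme of phagocytes, was higher by 3.69 ± 0.27 and the sialic acid receptor SIGLEC1 by 1.98 ± 0.30, and the haemoglobin receptor CD163 by 0.70 ± 0.11. LYVE1, the hyaluronan receptor of border macrophages and lymphatic cells, had 2.92, 1.04, 1.22, 1.57 and 3.39 CPM in white matter, against 5.87, 16, 7.78, 8.05 and 15.2 CPM in hippocampus (-2.34 ± 0.35, adjusted p = 0.000429). The mannose receptor MRC1 was lower by a smaller amount (-0.65 ± 0.11).

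Antigen presentation genes were mostly higher, with 6 of 7 higher and 0 lower (median 1.90). CD74, the invariant chain, had 334, 390, 504, 472 and 452 CPM in white matter, against 116, 117, 134, 54.6 and 157 CPM in hippocampus (1.95 ± 0.23). CIITA, the activator of class II genes, was higher by 2.24 ± 0.24 and MAMU-DRB1 by 1.90 ± 0.17. MAMU-DRB1 has near-identical copies among which reads could be split, and MAMU-DOB was not called (0.22 ± 0.14).

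Of 13 complement genes, 12 were higher and 0 lower (median 1.68). C3, the central component, had 467, 410.1, 241, 232 and 279.6 CPM in white matter, against 67.6, 39.1, 30.8, 31.7 and 56.9 CPM in hippocampus (2.86 ± 0.15). Its groups did not overlap. The alternative pathway genes CFB (2.37 ± 0.15) and CFD (3.13 ± 0.38) were higher. CLU was not called (0.25 ± 0.12), though it was called higher with all 45 libraries (0.29).

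Of 13 cytokine and chemokine genes, 9 were higher and 2 lower (median 1.79). CSF1, a growth factor of microglia, was higher by 2.37 ± 0.18 beside CCL2. CXCL12, a chemokine of vessels and neurons, was lower, with 5.94, 4.15, 5.61, 2.45 and 7.89 CPM in white matter, against 21.7, 39.7, 55, 24.3 and 24.5 CPM in hippocampus (-2.63 ± 0.29). IL34, a neuronal ligand of CSF1R, was lower (-0.66 ± 0.24, adjusted p = 0.0368), a call lost without animal 1, 2 or 4 (-0.74, -0.61 and -0.39) and without the animal block (-0.58, adjusted p = 0.0589).

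Interferon-stimulated genes had 9 of 14 higher and 3 lower (median 0.70). BST2 (1.98 ± 0.20) and OAS2 (1.38 ± 0.12) were higher, and RSAD2 (-1.18 ± 0.24) and IFI6 (-0.81 ± 0.13) were lower. Of the T cell list only CD4 and CD8A could be tested, which were both higher. Another 9 members had an ID but were too low to test in these 10 libraries, among them CD3E, and 6 had no ID. CD4 is also made by macrophages.

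Of 14 endothelial genes, 6 were higher and 1 lower (median 0.36), close to the 34.2% called higher over all genes. PECAM1 was higher by 1.26 ± 0.13, the receptor CD93, which myeloid cells share, by 2.35 ± 0.27 and the transporter SLCO1A2, also known from oligodendrocytes, by 1.88 ± 0.15. EGFL7 was lower (-0.82 ± 0.15) and the receptor FLT1 was not called (-0.17 ± 0.14). Of 10 pericyte and smooth muscle genes, 4 were higher and 1 lower. The filament gene DES was higher by 2.69 ± 0.26 and the contractile ACTA2 was lower (-1.20 ± 0.18). Of 12 basement membrane genes, 3 were higher and 3 lower, with LAMB2 at 0.93 ± 0.11 and LAMB1 at -1.75 ± 0.13.

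Of 15 genes of fibroblasts, meninges and fibrillar matrix, 9 were lower and 4 higher (median -0.92). COL1A1, a chain of type I collagen, had 4.33, 6.53, 5, 2.16 and 4.83 CPM in white matter, against 25.8, 30.5, 42.3, 16.5 and 40.3 CPM in hippocampus (-2.76 ± 0.16, adjusted p = 2.43e-06). COL3A1 (-1.97 ± 0.25), COL6A3 (-3.30 ± 0.27) and the proteoglycan LUM (-3.26 ± 0.27) were lower, and the matrix protease MMP2 was higher (1.73 ± 0.31).

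Markers of tissue next to the hippocampus varied between the libraries of both regions. The choroid plexus list, with 4 of 8 members lower, had a mean log2 CPM of 1.76 to 4.07 in white matter and 2.07 to 5.89 in hippocampus, highest in animal 5. The anti-ageing receptor KL had 22.3, 1.14, 2.55, 1.87 and 5.34 CPM in white matter, against 59.1, 23.4, 16.4, 53.2 and 166 CPM in hippocampus (-3.51 ± 0.55; -4.30 without animal 1). PRLR was lower (-2.56 ± 0.64). Of 8 ependymal cilia genes 3 were lower and 1 higher, with RSPH1 at -2.15 ± 0.39 and the cilia regulator FOXJ1 at 1.68 ± 0.47, a call lost without the animal block (1.28, adjusted p = 0.0746). The part of choroid plexus and ependyma in the other differences was not tested.

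Lipid genes separated by pathway. Of 13 genes of sphingolipid and galactolipid turnover, 11 were higher and 2 lower (median 1.14), among them the ceramide synthase CERS2 of myelin (2.56 ± 0.15) and SPTLC2, which starts the pathway (1.93 ± 0.16). Of 12 cholesterol synthesis genes, 7 were lower and 3 higher (median -0.70). HMGCS1, an early enzyme of the pathway, had 114, 56.4, 112, 71.7 and 116 CPM in white matter, against 305, 253, 392, 301 and 265 CPM in hippocampus (-1.73 ± 0.15).

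Of 17 lysosome genes, 13 were higher and 3 lower (median 1.81). The cholesterol exporter NPC1 (2.54 ± 0.14) and TFEB, the regulator of lysosomal genes (2.57 ± 0.15), were among the higher ones. The 3 lower genes were subunits of the proton pump, which also fills synaptic vesicles, with ATP6V1A at -1.73 ± 0.11. Of 10 iron genes, 7 were higher and 2 lower (median 1.37). TF, the transferrin made by oligodendrocytes, was higher by 3.26 ± 0.17, and the ferritin chains FTH1 and FTL by 2.29 ± 0.17 and 1.81 ± 0.12.

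Of 10 p53 targets, 5 were higher and 0 lower (median 0.51), with EDA2R at 1.21 ± 0.24 and the nucleotide excision repair gene XPC at 1.13 ± 0.078. Of 8 senescence genes, 4 were higher and 1 lower (median 0.92). The cell cycle inhibitors CDKN2B (2.71 ± 0.43) and CDKN2C (2.01 ± 0.22) were higher and IGFBP3 was lower (-2.37 ± 0.31). Of 20 DNA repair genes, 10 were higher and 4 lower (median 0.27), from OGG1 (-1.39 ± 0.096), which removes oxidised guanine, to BRCA1 (1.53 ± 0.16). Chaperones had 5 of 12 higher and 5 lower, not far from the 34.2% and 35% over all genes. CRYAB, a small heat shock protein of glia (2.72 ± 0.12), and its partner BAG3 (2.92 ± 0.19) were higher and HSPH1 was lower (-1.54 ± 0.10). Of 7 immediate early genes, 4 were lower and 2 higher (median -0.79), with NR4A3 at -2.86 ± 0.23 and JUNB at 1.30 ± 0.15.

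Whether the difference between the regions was particular to the fWBI animals was tested on 30 libraries, as the difference of white matter minus hippocampus in fWBI animals minus the same difference in control or TBI animals. Against control animals, 429 of 16173 genes (2.65%) had a higher value and 356 (2.2%) a lower one, 785 or 4.85% in all, with a median of -0.024 over all tested genes. Without control animals 1 and 3, 495 of 16492 genes (3%) were called, 1.58% higher and 1.42% lower, and 350 genes were called in both fits with the same sign. Against TBI animals, 115 genes (0.711%) had a higher value and 111 (0.686%) a lower one, 1.4% in all. The number of calls against control was 417 without fWBI animal 2 and 457 without control animal 3, and against TBI it was 122 without fWBI animal 2, 129 without TBI animal 1 and 138 to 143 without TBI animal 2, 3 or 5. Both comparisons use the same fWBI libraries. Each value below is the log2 interaction ± SE, and ranges of CPM, where given, are here scaled over all 30 libraries and so slightly different from the CPM given above.

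Of 11 myelin genes, 1 was called higher and 0 lower against control, with or without control animals 1 and 3, and 0 were called against TBI. Their median was -0.04 against control, -0.68 without those animals and -0.64 against TBI, where the medians of all tested genes were -0.024, -0.044 and -0.008. The oligodendrocyte regulators and lipid enzymes had medians of -0.066, -0.66 and -0.49 in the same 3 fits, with 0 of 7 called in any of them. MBP had 11922 to 25842 CPM in fWBI white matter, 25050.5 to 41484 CPM in TBI white matter and 17535 to 33725 CPM in control white matter, and its interaction was -0.46 ± 0.51 against control (adjusted p = 0.706; -1.20 without control animals 1 and 3) and -1.11 ± 0.50 against TBI (adjusted p = 0.398).

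Of 15 precursor genes, 5 were called lower and 0 higher against control, 8 were lower without control animals 1 and 3, and 4 were lower against TBI. MYT1 had 0.207 to 1.22 CPM in fWBI white matter, 9.36 to 15.7 CPM in TBI white matter and 14.9 to 19.6 CPM in control white matter. In hippocampus it had 12.7 to 25.3 CPM after fWBI, 21.8 to 23.8 CPM after TBI and 19.7 to 30.6 CPM in controls. Every fWBI white matter library lay below all libraries of the other groups, while the ranges in hippocampus overlapped. Its interaction was -3.91 ± 0.28 against control (adjusted p = 1.01e-06; -3.95 without control animals 1 and 3) and -3.64 ± 0.28 against TBI (adjusted p = 3.25e-06). TNR had 2.69 to 13.7 CPM in fWBI white matter, 148 to 222 CPM in TBI white matter and 137 to 219 CPM in control white matter. Its difference between white matter and hippocampus was -3.30 after fWBI, 0.65 after TBI and 0.50 in controls, an interaction of -3.80 ± 0.35 against control (-3.94 without control animals 1 and 3) and -3.95 ± 0.35 against TBI. PCDH15 (-2.57 ± 0.48 against control, -2.62 without those animals, -2.96 ± 0.48 against TBI) and LUZP2 (-2.81 ± 0.33, -2.57 and -2.07 ± 0.33) had lower values in the same 3 fits. PCDH15 in hippocampus had 11.8 to 30.4 CPM after fWBI, 28.8 to 41.2 CPM after TBI and 37.8 to 83.2 CPM in controls. Its fWBI hippocampus libraries thus lay below all control ones. TNR in hippocampus had 40.1 to 108.7, 98.3 to 131.7 and 71.4 to 177.7 CPM in the same groups. An interaction leaves out a change that both regions share. The Notch ligand DLL3 had 0 to 0.508 CPM in fWBI white matter, below the limit on reads, 3.04 to 4.49 CPM in TBI white matter and 2.39 to 3.48 CPM in control white matter. PLPPR1, a membrane protein of growing neurites, was lower against both (-2.91 ± 0.21 against control, -2.96 without those animals, -2.92 ± 0.21 against TBI). GRIA4, an AMPA receptor subunit that precursors share with interneurons, had 5.77 to 10.2 CPM in fWBI white matter, 30 to 38.2 CPM in TBI white matter and 33.6 to 59.3 CPM in control white matter. Its interaction was -2.69 ± 0.17 against control (-2.52 without control animals 1 and 3) and -2.21 ± 0.17 against TBI.

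Several neuronal lists moved with the 2 control animals. The median interaction of the pan-neuronal list against control was -0.99 with all animals and 0.099 without control animals 1 and 3, with 0 of 13 members called in either fit. For the synaptic vesicle list it was -1.10 and 0.12, and for voltage-gated channels -1.25 and -0.12, with 4 and 2 of 21 members called lower. For glutamate receptors and scaffolds it was -0.997 and -0.21, with 6 and 3 of 23 called lower, and 1 was lower against TBI. The hippocampal subfield list had 0.13 and 0.28, with 1 of 15 lower in each fit and 1 against TBI. C1QL2 was lower in all 3 fits (-2.43 ± 0.50 against control, -2.47 without those animals, -2.31 ± 0.50 against TBI). Without fWBI animal 5 it was -3.12 against control and -2.99 against TBI, and the call against TBI was lost without fWBI animal 1, 2, 3 or 4 or TBI animal 1, 2, 3 or 5 (-2.41 to -2.04). CA10, a carbonic anhydrase-related protein of neurons, had an interaction of -3.23 ± 0.40 against control, -2.59 without those animals and -2.22 ± 0.40 against TBI.

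**Figure D5:**
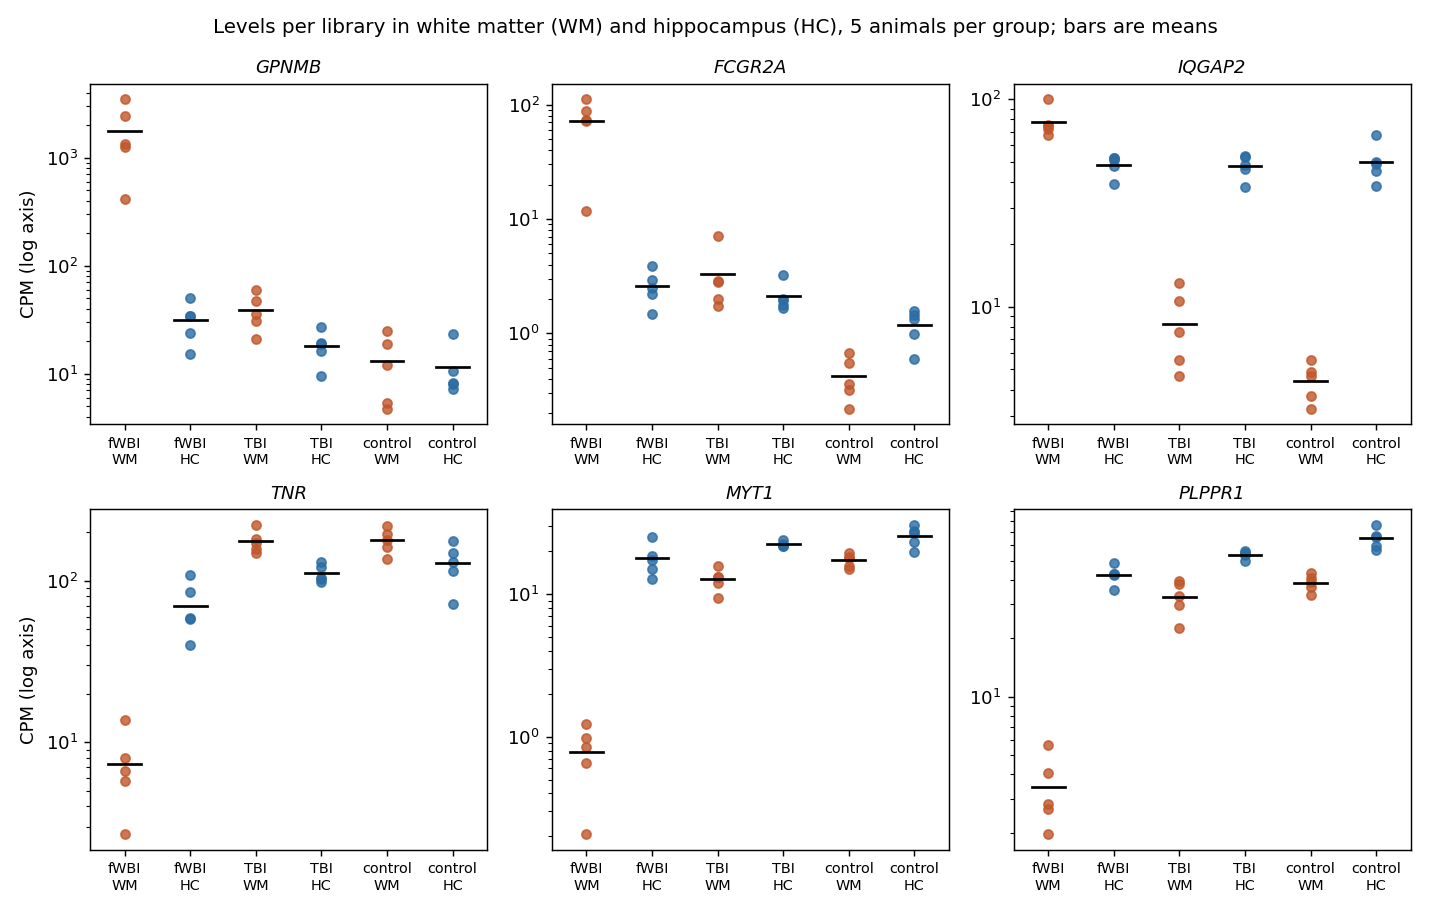
CPM (vertical log axis) of 6 genes in white matter (WM, orange) and hippocampus (HC, blue) of fWBI, TBI and control animals, 5 libraries per group, with bars for means. The fWBI white matter libraries lie above all other groups for GPNMB and FCGR2A and below all others for TNR, MYT1 and PLPPR1.

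Homeostatic astrocyte genes had 6 of 14 lower values against control, 4 without control animals 1 and 3, and 1 against TBI. SLC1A2 had 264 to 460.1 CPM in fWBI white matter, 799.9 to 1630.2 CPM in TBI white matter and 1286 to 2479 CPM in control white matter, and 1736 to 2984, 1922 to 2575 and 1493 to 2539 CPM in the hippocampus of the same groups. In white matter the fWBI libraries lay below those of both other groups, and in hippocampus the 3 groups overlapped. The interaction was -2.31 ± 0.22 against control (adjusted p = 2.14e-05; -2.27 without those animals) and -1.75 ± 0.22 against TBI (adjusted p = 0.000554). Reactive astrocyte genes had 7 of 12 higher values against control, 3 without control animals 1 and 3, and 3 against TBI. VIM was higher in all 3 fits (2.08 ± 0.23 against control, 2.02 without those animals, 1.51 ± 0.23 against TBI), and so was SERPINA3 (2.94 ± 0.53, 2.04 and 2.23 ± 0.50). For SERPINA3 the call against TBI was lost without fWBI animal 1, 2, 3 or 4 or TBI animal 1, 2, 4 or 5 (2.05 to 2.35) and without the animal block (2.29, adjusted p = 0.0556). In hippocampus SERPINA3 had 88.7 to 167 CPM after fWBI, 22.4 to 99 CPM after TBI and 8.37 to 50 CPM in controls. Every fWBI hippocampus library thus lay above all control ones for SERPINA3, while these groups overlapped for VIM. WIF1, a secreted Wnt inhibitor, had a lower value against control (-2.97 ± 0.59; -3.67 without those animals). Against TBI it was not called (-2.30 ± 0.60, adjusted p = 0.0734). Its level in control white matter was widely spread, at 10.7 to 93.9 CPM.

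Activated and lipid-laden macrophage genes had 8 of 18 higher values against control, 4 higher and 1 lower without control animals 1 and 3, and 4 higher against TBI. GPNMB had 414 to 3478 CPM in fWBI white matter, 20.9 to 59.2 CPM in TBI white matter and 4.74 to 24.6 CPM in control white matter. Its interaction was 5.50 ± 0.64 against control (5.09 without those animals) and 4.50 ± 0.62 against TBI. FCGR2A, which is not in this list, had 11.6 to 112 CPM in fWBI white matter, 1.72 to 7.12 CPM in TBI white matter and 0.22 to 0.669 CPM in control white matter (6.04 ± 0.62 against control, 4.07 ± 0.48 against TBI). It had 5, 2, 7, 3 and 3 reads in control white matter of animals 1 to 5, too few for a value without control animals 1 and 3. The actin-capping protein CAPG (2.52 ± 0.34, 2.15 and 1.75 ± 0.33) was higher in the same 3 fits as GPNMB. So was LYZ (2.42 ± 0.41, 1.94 and 2.07 ± 0.40), which belongs to the perivascular and monocyte-derived macrophage list. CD68 (2.69 ± 0.40, 2.27 and 1.75 ± 0.39) was higher too, but its call against TBI was lost without fWBI animal 2, 3 or 4 or any 1 TBI animal (1.47 to 1.84). In hippocampus LYZ had 16.8 to 25.8 CPM after fWBI and 2.85 to 6.94 CPM in controls. CD68 had 4.3 to 5.94 CPM there after fWBI and 1.89 to 3.36 CPM in controls. Both genes thus had higher levels in every fWBI hippocampus library than in any control one. For GPNMB, FCGR2A and CAPG the hippocampus of these groups overlapped. TREM1 had 2.97 to 34.6 CPM in fWBI white matter, at most 1.31 CPM in TBI white matter and at most 0.11 CPM in control white matter, where its reads were below the limit. Of 7 homeostatic microglia genes, 1 was called higher and 0 lower against control, 0 higher and 1 lower without control animals 1 and 3, and 0 in either direction against TBI.

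Complement genes had 7 of 13 higher values against control, 6 without control animals 1 and 3, and 2 against TBI. C1QC, a chain of the first component, had 145 to 326 CPM in fWBI white matter, 54.8 to 128 CPM in TBI white matter and 18.1 to 47 CPM in control white matter (1.61 ± 0.28 against control, 1.24 without those animals). Its hippocampal levels were 51.7 to 93 CPM after fWBI, 33.3 to 76.5 CPM after TBI and 19.4 to 47.2 CPM in controls. In both regions, every fWBI library thus lay above all control libraries. The complement receptor CR1 had an interaction of 3.65 ± 0.63 against control (3.27 without those animals, 4.44 without control animal 2) and 3.19 ± 0.63 against TBI, a call lost without fWBI animal 2 (2.98, adjusted p = 0.0543).

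The named genes with the largest interactions included several outside these lists. CDH1, the epithelial cadherin, had 2.29 to 54.9 CPM in fWBI white matter, at most 1.22 CPM in TBI white matter and at most 0.36 CPM in control white matter. Its reads in control white matter were below the limit, and its interaction against TBI was 5.94 ± 0.64. In TBI white matter of animals 1 to 5 it had 0, 2, 13, 4 and 0 reads, too few for a value without TBI animal 3. BCL2A1, an anti-apoptotic gene of leukocytes, had 0.764 to 22.2 CPM in fWBI white matter, 0.419 to 0.738 CPM in TBI white matter and 0 to 0.24 CPM in control white matter, with reads below the limit in TBI hippocampus and control white matter. IQGAP2, a scaffold protein, had 67.4 to 100.3 CPM in fWBI white matter, 4.67 to 13.1 CPM in TBI white matter and 3.24 to 5.54 CPM in control white matter, with 39.2 to 52.3, 37.6 to 53.1 and 38.2 to 67.2 CPM in hippocampus. White matter was above hippocampus after fWBI and below it in both other groups, an interaction of 4.17 ± 0.29 against control (4.29 without those animals) and 3.25 ± 0.28 against TBI. PLAU, the urokinase gene (3.22 ± 0.46 against control, 3.51 without those animals, 3.28 ± 0.43 against TBI), and RARRES1 (3.56 ± 0.44, 3.46 and 4.06 ± 0.42) were higher in the same 3 fits. The transcription factor EGR2 (3.02 ± 0.54, 3.84 and 3.95 ± 0.61) and the cilia gene CFAP54 (4.18 ± 0.37, 4.12 and 2.27 ± 0.34) were higher too. EGR2 had 16 reads in the 5 TBI white matter libraries, just above the limit of 15. Aromatase, CYP19A1, had 1.44 to 11.2 CPM in fWBI white matter, 0 to 0.503 CPM in TBI white matter, below the limit on reads, and 0 to 0.956 CPM in control white matter.

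The collagen difference came with high levels in fWBI hippocampus. COL1A1 had 2.15 to 6.52 CPM in fWBI white matter, 0.615 to 3.75 CPM in TBI white matter and 1.1 to 3.3 CPM in control white matter. In hippocampus it had 16.3 to 41.7 CPM after fWBI, 2.2 to 5.06 CPM after TBI and 2.13 to 7.96 CPM in controls. The fWBI hippocampus libraries lay above all 10 other hippocampus libraries. The interaction was -1.85 ± 0.36 against control (-1.96 without control animals 1 and 3) and -1.98 ± 0.36 against TBI, where the call was lost without the animal block (-2.05, adjusted p = 0.0518). COL3A1 was higher after fWBI in both regions. It had 24.8 to 47.1 CPM in fWBI, 6.27 to 16.7 CPM in TBI and 9.59 to 17 CPM in control white matter. In hippocampus it had 55.4 to 257, 7.38 to 22 and 14.1 to 35.9 CPM in the same groups. Its interaction was -1.32 ± 0.35 against control (-1.36 without those animals) and -1.87 ± 0.35 against TBI. The call against control was lost without fWBI animal 2, 3 or 5 or control animal 3, 4 or 5 (-1.30 to -1.09). It was also lost with library totals (-1.28), with control and fWBI libraries only (-1.28, adjusted p = 0.137) and without the animal block (-1.47, adjusted p = 0.0714). Of 16 fibroblast and matrix genes, 4 were called lower against control, 2 without those animals and 2 against TBI.

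Cholesterol synthesis genes had 5 of 12 lower values against control, 2 without control animals 1 and 3, and 0 against TBI. HMGCS1 had 56.3 to 116 CPM in fWBI white matter, 105 to 166 CPM in TBI white matter and 161 to 341 CPM in control white matter, an interaction of -1.24 ± 0.22 against control (-1.07 without those animals) and -0.30 ± 0.22 against TBI (adjusted p = 0.67, not called).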

How the data were processed

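Total RNA was sequenced after removal of ribosomal RNA with a stranded kit, per the labels' protocols. The authors deposited raw read counts per gene for 45 libraries, and the deposited counts were whole numbers with totals of 6625435 to 12541507. FastQC, STAR, featureCounts and DESeq2 are listed, with no version, per the submitters' processing notes. No source used here gives the genome build, the annotation or the strand setting of the counting, so no coordinates are given, and reads of overlapping antisense genes or near-identical copies could be misassigned. Symbols came from a table of gene names and covered 15769 of 30246 Ensembl IDs, and 11396 of the 15251 tested genes. The table holds no other columns of per-library values.

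From the counts, the 10 fWBI libraries were fitted with region and animal, and 30 libraries of 3 groups with region by group and animal, with edgeR 4.0.16 in R 4.3.3. Low counts were filtered by edgeR's default rule, libraries were scaled by TMM, and the quasi-likelihood test was used. P-values were two-sided and adjusted by the Benjamini-Hochberg method over all tested genes, with a threshold of 0.05. The SE is the fold change divided by the root of the F statistic. Log2 CPM used a prior count of 2. The pairing comes from the labels, which give 1 animal to both regions. Libraries of an animal deviated together from their region's mean (r across genes 0.114 to 0.346, highest with its own partner in 4 of 5 animals), and no 2 libraries of a region agreed within sampling noise. In a test on simulated data, 200 genes above 1 CPM were changed by 2-fold or 4-fold. Of 2-fold and 4-fold region differences, 79.4% and 100% were recovered among 15251 genes, with 13 false calls. For interactions against control it was 41.1% and 84.1% among 16173 genes, with 3 false calls, so smaller interactions could be missed. Far more genes differ between the regions in the data, so these rates need not carry over, and depth was not varied.

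The named genes are the 12 largest rises and 12 largest falls among called genes with a symbol, 5 of 5 animals in 1 direction and at least 1 CPM on average, the 10 largest interactions each way, and members of 42 gene lists. Not every gene that this rule picks is reported. The lists hold 677 genes, of which 491 were tested, 30 were too low to test and 156 had no ID. The comparison and the lists were chosen with earlier results of these data known. Alternatives were library totals or DESeq2's size factors for scaling, the DESeq2 test (1.42.0), limma-voom (limma 3.58.1), no filter or a minimum of 1 CPM in 5 libraries, a log2 fold minimum of 1, no animal block, other sets of libraries, and leaving out animals.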

Additional observations from a re-analysis of the deposited data

Results flagged for a closer look

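Among 5 libraries of a region, a library was set apart when its gap to the nearest other, divided by the range of the 5, was above 0.71. This held for 13 of 394 sets of 5 values tested (3.3%), against about 1 in 20 by chance. In fWBI white matter of animal 2, log2 CPM was 5.61 for the list of neurofilaments and axonal cytoskeleton (others 5.80 to 5.88) and 1.18 for HPCA (others 2.52 to 2.74). In fWBI white matter of animal 5, log2 CPM was 6.23 for the list of sphingolipid and galactolipid synthesis and breakdown (others 6.37 to 6.40), 10.45 for AQP4 (others 9.45 to 9.69) and 3.56 for FCGR2A (others 6.19 to 6.81). That library also had 8.47 for FTH1 (others 8.95 to 9.14), 10.57 for GJA1 (others 9.93 to 10.10) and 11.29 for GLUL (others 10.03 to 10.22). In fWBI white matter of animal 3, log2 CPM was 4.72 for FLT1 (others 5.33 to 5.48). In fWBI hippocampus of animal 5, log2 CPM was 7.00 for the list of heat shock and DNAJ chaperones (others 6.69 to 6.74), 4.66 for AQP3 (others 5.31 to 5.46) and 3.79 for NES (others 3.23 to 3.38). In fWBI hippocampus of animal 4, log2 CPM was 0.94 for CIITA (others 1.78 to 2.09).

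The difference of white matter minus hippocampus differed between fWBI and control animals in 785 genes by the test of the interaction itself. Of the values given above for single genes, log2 interactions were highest for FCGR2A (6.04), GPNMB (5.50), CFAP54 (4.18), IQGAP2 (4.17), CR1 (3.65), RARRES1 (3.56), PLAU (3.22) and EGR2 (3.02). Higher values were also found for SERPINA3 (2.94), CD68 (2.69), CAPG (2.52), LYZ (2.42), VIM (2.08) and C1QC (1.61). They were lowest for MYT1 (-3.91), TNR (-3.80), CA10 (-3.23), WIF1 (-2.97), PLPPR1 (-2.91), LUZP2 (-2.81), GRIA4 (-2.69) and PCDH15 (-2.57). Lower values were also found for C1QL2 (-2.43), SLC1A2 (-2.31), COL1A1 (-1.85), COL3A1 (-1.32) and HMGCS1 (-1.24).

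Against TBI animals the interaction was called in 226 genes. Of the values given above for single genes, those against TBI were highest for CDH1 (5.94), GPNMB (4.50), FCGR2A (4.07), RARRES1 (4.06), EGR2 (3.95), PLAU (3.28), IQGAP2 (3.25) and CR1 (3.19). Higher values were also found for CFAP54 (2.27), SERPINA3 (2.23), LYZ (2.07), CAPG (1.75), CD68 (1.75) and VIM (1.51). The lowest were those for TNR (-3.95), MYT1 (-3.64), PCDH15 (-2.96), PLPPR1 (-2.92), C1QL2 (-2.31), CA10 (-2.22), GRIA4 (-2.21) and LUZP2 (-2.07). Lower values were also found for COL1A1 (-1.98), COL3A1 (-1.87) and SLC1A2 (-1.75).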

How the results depend on the processing

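The number of genes that differed between white matter and hippocampus after fWBI stayed within 1.5 times 10555 under every alternative run except a log2 fold minimum of 1 (3798), and it was 9530 to 10257 when 1 animal was left out and 10244 without the animal block. Interactions were less stable. Against control, 785 genes became 1215 with the DESeq2 test, 1496 with all 45 libraries, 358 with control and fWBI libraries only, 495 without control animals 1 and 3, and 58 with a log2 fold minimum of 1. The range was 417 to 937 when 1 animal was left out, and without the animal block it was 915. Against TBI, 226 genes became 457 with the DESeq2 test, 452 with all 45 libraries, 442 with TBI and fWBI libraries only and 25 with the fold minimum. Here the range was 122 to 320, and 207 without the block. The cause was not tested. Of 2145 values of the 143 named genes called between the regions under 15 alternatives, 2105 kept direction and call, 40 lost the call (25 of them under the fold minimum) and 0 changed sign. PROX1, which was not called, was -0.012 to 0.346 when 1 animal was left out, lowest without animal 2. For the 27 and 25 named interactions against control and TBI, 548 of 567 and 459 of 500 values kept direction and call. Other calls that the animal block decided are given beside their genes. The medians of the pericyte and basement membrane lists, both within 0.05 of 0, changed sign in 2 alternatives each. Scaling by library totals or DESeq2's size factors moved no median of all genes by more than 0.05. Depth limits genes below about 1 CPM, where a library holds few reads.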
